A study of Homo sapiens with 14 samples.

Results

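The genes described here are those of the mitochondrial ribosome whose symbol is MRPL or MRPS followed by digits and at most 1 letter A to C, together with MPV17L2, a protein of the inner mitochondrial membrane known as a factor of mitochondrial ribosome assembly. The rule took 79 of the 63140 genes in the counts table, of which 49 carry an MRPL symbol, 29 an MRPS symbol and 1 is MPV17L2. They lie on 21 chromosomes. RNA was measured in HEK293T, an established cell line of human embryonic kidney origin. Cells were collected 24 h after transfection with a commercial non-targeting siRNA (AllStars negative control, n = 5), with a duplex of miR-34a (miR-34a-WT, n = 5) or with a miR-34a duplex in which guide residues 13 and 14 were rSpacer abasic residues that carry no base (miR-34a-RS, n = 4, replicates 1, 2, 3 and 5). All 3 groups had therefore received a small RNA, no untransfected group was analysed here, and the miRNA was supplied from outside rather than made by the cells. The comparison between the 2 miRNAs addresses pairing beyond the seed.

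Mitochondrial ribosomes translate the few proteins encoded by mitochondrial DNA, all of them parts of oxidative phosphorylation. Their RNA comes from the mitochondrial genome, while every ribosomal protein is encoded in the nucleus, made in the cytosol and imported. MRPL proteins belong to the large subunit, which joins amino acids, and MRPS proteins to the small subunit, which reads the mRNA, with a few exceptions such as MRPS18A and MRPS30, which are known to sit in the large subunit. A miRNA guide binds mRNAs mainly through its seed and lowers the abundance of many of them.

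The RefSeq (GRCh38.p14) mature sequence of the miRNA is shown because the member values below are read against its seed, bases 2 to 8 counted from the 5′ end, in capitals.
hsa-miR-34a-5p: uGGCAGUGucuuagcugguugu
The same sequence is repeated with the 2 positions that lacked a base in miR-34a-RS in capitals.
positions 13 and 14: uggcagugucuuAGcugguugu
An 8mer match (CACTGCCA) pairs with the whole seed and has an A opposite the first guide base, a 7mer-m8 match (CACTGCC) lacks that A, a 7mer-A1 match (ACTGCCA) lacks the pair at guide base 8, and a 6mer (ACTGCC) lacks both. In the longest 3′ UTR of each gene's protein-coding transcripts in GENCODE 29, 3 members held an 8mer. Their target sites are printed on the transcript strand, 5′ to 3′, with the match in capitals.
MPV17L2, chr19:18196351-18196380, + strand of GRCh38: gtctcaagcaccagcccctcaaCACTGCCA
MRPL10, chr17:47823841-47823870, − strand: acccccttggggcacaacctgcCACTGCCA
MRPS25, chr3:15051791-15051820, − strand: acgtacctgctgaccagtcagcCACTGCCA
MRPL10 also held a 7mer-m8 match farther upstream in the same UTR (chr17:47823896-47823925, ctattgtcccctgcctccttggtCACTGCC). A further 3 members, MRPL30, MRPL33 and MRPL52, held a 7mer-m8 as their strongest match. The MRPL52 site is shown because it was the only 8mer or 7mer-m8 site of a member with the 4 letters AGCT, which would pair with guide bases 13 to 16, at 1 to 15 bases upstream, here with 7 bases between. These letters are not capitalised in the line. Only the word AGCT was searched for, so pairing of other guide bases beyond the seed was not examined for MPV17L2 or any other member.
MRPL52, chr14:22834445-22834474, + strand: acaccaagaacaagctgttagatCACTGCC

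Library totals ranged from 22.24 to 36.26 M counts, and the members took 0.531% ± 0.008 of the counts in control, 0.560% ± 0.013 in miR-34a-WT and 0.561% ± 0.011 in miR-34a-RS (mean ± SD). The labels do not say whether replicates came from separate cultures, and a p-value here therefore reflects library-to-library spread that may be technical only. Markers fixed for the embryonic kidney line (8 of 8 detected in every library) summed to 371 to 401 CPM (counts scaled to library size) in control, 314 to 343 in miR-34a-WT and 321 to 347 in miR-34a-RS. Fibroblast markers summed to 48.1 to 60.0, 43.7 to 48.3 and 45.5 to 50.3 CPM, with COL1A2 and FAP at 0 counts in all 14 libraries. Blood cell markers summed to 2.55 to 3.14, 2.41 to 3.53 and 3.45 to 3.63 CPM, and PTPRC reached at most 1 count in a library. Single markers differed between groups at an edgeR adjusted p under 0.05. Of the 8 kidney line markers, 5 were lower and 1 higher with miR-34a-WT, and 4 and 1 with miR-34a-RS. Of 6 tested fibroblast markers, 4 were lower with each miRNA. Over all tested genes 21.3% and 18.4% were lower. In bulk RNA, fewer cells of a kind and less RNA per cell cannot be told apart.

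MPV17L2 (ENSG00000254858, chr19:18193182-18196948, + strand, 8mer) had the largest change of any member in both miRNA groups. Its level in control libraries 1 to 5 was 32.3, 34.7, 35.8, 37.6 and 39.3 CPM, scaled by TMM factors, which adjust for RNA composition. It was 8.52, 9.64, 10.9, 11.3 and 11.1 CPM in miR-34a-WT libraries 1 to 5, and 11.2, 12.3, 13.99 and 12.3 CPM in miR-34a-RS libraries 1, 2, 3 and 5. The lowest control library was thus above the highest library of either miRNA. The mean fell from 35.9 ± 2.7 (SD, n = 5) to 10.3 ± 1.2 CPM (n = 5) and to 12.4 ± 1.1 CPM (n = 4), and the fitted levels were 28.8% and 34.7% of control. In edgeR's quasi-likelihood test the log2 fold change was -1.80 (SE 0.07, adjusted p = 8.45e-16) for miR-34a-WT and -1.53 (SE 0.08, adjusted p = 6.35e-14) for miR-34a-RS. Reads of 7.73% of its exon bases could also come from RAB3A, a vesicle GTPase gene on the opposite strand, since the library kit does not mark strand. RAB3A, which lies outside the naming rule and is named because of this overlap, rose from 7.79 CPM in control to 10.5 CPM in miR-34a-WT (log2 fold change 0.44, SE 0.10, edgeR adjusted p = 0.000886).

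MRPL10 (ENSG00000159111, chr17:47823272-47831534, − strand, 8mer), a protein at the base of the ribosomal stalk that recruits translation factors, had the next largest fall. Its levels were 81.4, 89.6, 86.9, 86.5 and 90.9 CPM in control, 56.1, 60.7, 59.9, 58.2 and 58.5 in miR-34a-WT, and 55.5, 60.7, 58.8 and 57.0 in miR-34a-RS. No miRNA library reached the control range, and the 2 miRNA groups overlapped. The log2 fold change against control was -0.57 (SE 0.04, edgeR adjusted p = 9.07e-11) for miR-34a-WT and -0.59 (SE 0.05, adjusted p = 2.41e-10) for miR-34a-RS. None of its merged exon bases are shared with another annotated gene.

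MRPS25 (ENSG00000131368, chr3:15042460-15065335, − strand, 8mer), a small subunit protein, was lower by a smaller amount. It was measured at 76.7, 70.9, 67.3, 72.6 and 72.9 CPM in control, at 66.5, 60.5, 62.3, 63.6 and 66.6 in miR-34a-WT, and at 66.9, 63.6, 63.1 and 66.6 in miR-34a-RS. The highest miRNA library of each group lay just under the lowest control library. The log2 fold change was -0.17 (SE 0.05, edgeR adjusted p = 0.00313) and -0.15 (SE 0.05, adjusted p = 0.0176). The call for miR-34a-RS was lost in 5 of 23 alternative settings (highest adjusted p 0.153). In this gene 22.2% of exon bases are shared with NR2C2 on the opposite strand, and 2 of its 3 annotated coding 3′ UTRs hold an 8mer or 7mer-m8.

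**Figure D1:**
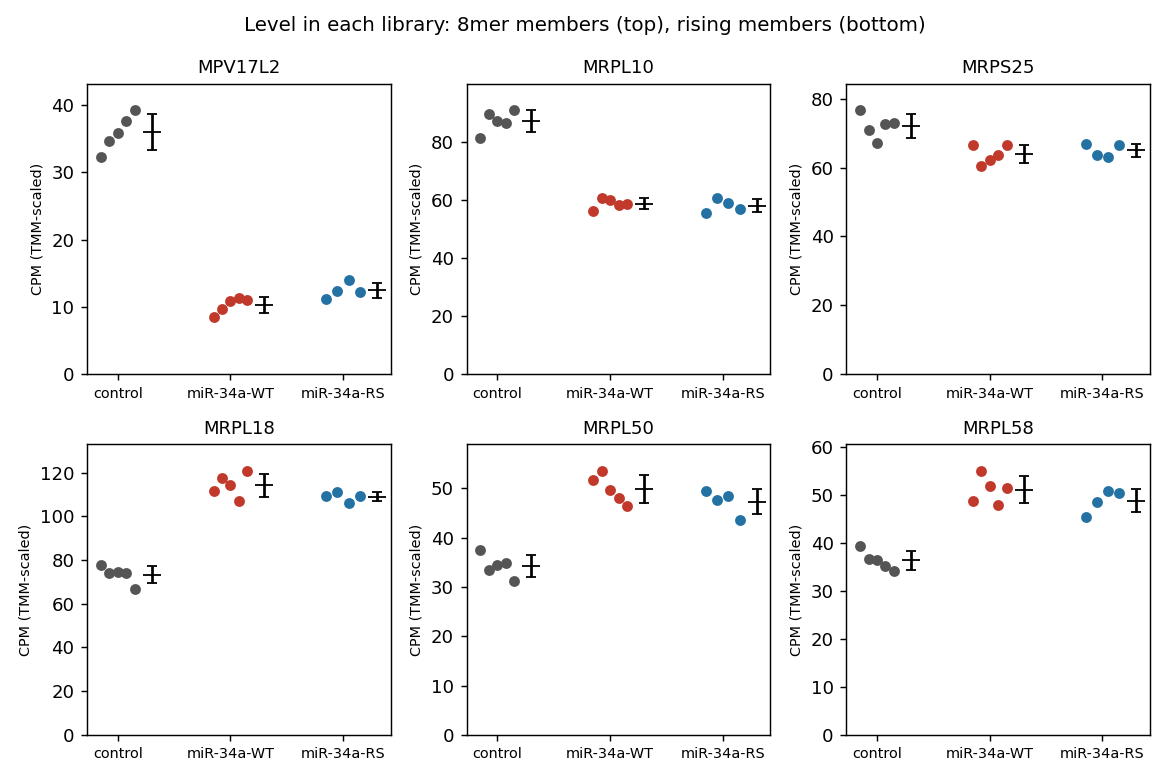
TMM-scaled CPM (y axis, from 0) of 6 members in each of the 14 libraries (points, by group on the x axis), with mean and SD beside them. MPV17L2, MRPL10 and MRPS25 (top, 8mer) lie lower in both miRNA groups than in any control library, while MRPL18, MRPL50 and MRPL58 (bottom) lie higher.

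Among members with a weaker match there was 1 fall, that of MRPS12. MRPL30 (71.9 CPM in control), MRPL33 (38.0) and MRPL52 (61.6), all large subunit proteins with a 7mer-m8, had log2 fold changes of -0.02, 0.02 and -0.05 with miR-34a-WT and of -0.06, 0.00 and 0.01 with miR-34a-RS, none past the threshold. For MRPL52, the gene with the AGCT letters, miR-34a-RS minus miR-34a-WT was 0.06 (95% interval -0.04 to 0.16, edgeR adjusted p = 0.721). An 8mer or 7mer-m8 was present in only 5 of 10 annotated coding 3′ UTRs of MRPL52 and 1 of 2 of MRPL30, but in 2 of 2 of MRPL33. Which of these UTRs the cells used was not tested. Of 5 members with a 7mer-A1 (MRPL19, MRPL42, MRPL47, MRPL50 and MRPS14), 2 rose and none fell with either miRNA, and of 3 with a 6mer (MRPS11, MRPS12 and MRPS27), MRPS27 rose and MRPS12 fell with each.

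Beside these counts stand those of all tested genes with the same match. With miR-34a-WT, 52.2% of 820 genes with an 8mer and 42.0% of 1593 with a 7mer-m8 were lower. With miR-34a-RS the shares were 50.1% and 36.7%. Of 822 genes with a 7mer-A1, 20.4% were higher and 33.6% lower with miR-34a-WT, and 14.2% and 35.0% with miR-34a-RS. Of 1545 with a 6mer, 21.6% were higher and 30.6% lower with miR-34a-WT, and 17.7% and 28.5% with miR-34a-RS. Among genes with no match, 17.3% were lower and 27.1% higher with miR-34a-WT, and of the 64 members with none, 4 were lower and 20 higher. Members had shorter 3′ UTRs, with a median of 509.5 bases against 1369 over all tested genes. An 8mer or 7mer-m8 anywhere in a protein-coding transcript was present in 12 of 78 tested members (15.4%) and in 38.0% of 13679 tested genes. MRPL16 and MRPL44 held an 8mer outside their 3′ UTRs only.

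Across the whole set, 78 of the 79 members passed the filter on low counts. MRPL53, a large subunit protein, had 0 counts in all 14 libraries, which allows up to 0.0827 to 0.135 CPM (3 counts per library, counting error only), and 45.2% of its exon bases are shared with CCDC142 on the same strand. The annotation release used for counting is not given in the sources used here, and the 0 may depend on it. With miR-34a-WT, 23 members were higher and 8 lower than control at an edgeR adjusted p under 0.05, and 47 did not pass. Of all 18321 tested genes 40.2% were called, 18.9% higher and 21.3% lower. The members' shares were 29.5% higher and 10.3% lower, and their median log2 fold change was 0.08 against -0.02 over all tested genes. In a fit that removed each library's trend over 3′ UTR GC content and length, 40 members were higher and 7 lower. That fit also called more genes in general, with 4415 higher and 3311 lower among the 13608 it tested.

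With miR-34a-RS, 20 members were higher (25.6%) and 6 lower (7.69%), beside 34.6% of all tested genes called, 16.2% higher and 18.4% lower. The members' median log2 fold change was 0.07, against -0.01 over all tested genes. Without miR-34a-RS replicate 2, 13 were higher. Groups did not overlap for 19 higher and 6 lower members with miR-34a-WT (28.9% of all tested genes did not overlap, 13.8% higher and 15.1% lower) and for 15 and 5 with miR-34a-RS (27% of all, 12.6% higher and 14.4% lower). Both comparisons use the same 5 control libraries.

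**Figure D2:**
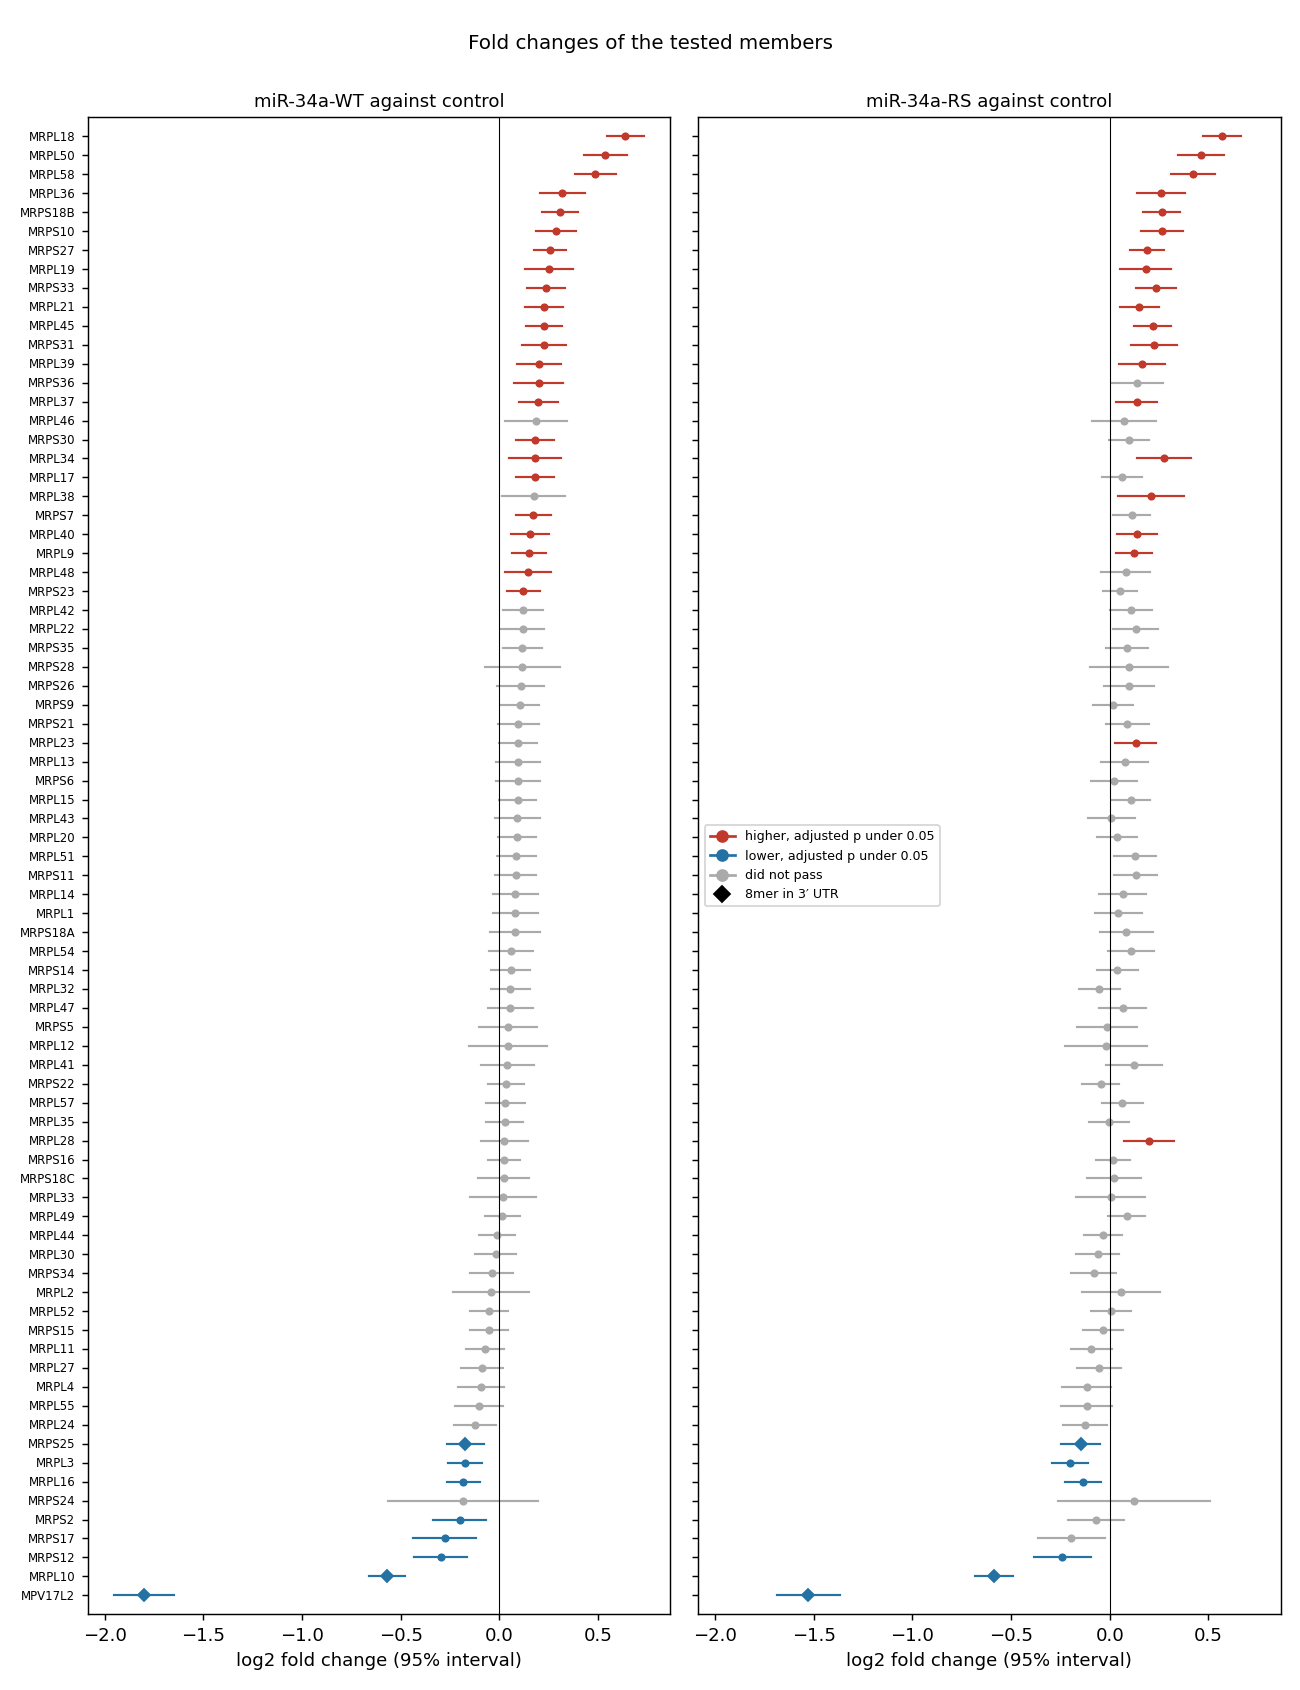
Log2 fold change (x axis) with its 95% interval for the 78 tested members (rows, ordered by the miR-34a-WT value), for each miRNA against the shared controls; colours mark calls at an edgeR adjusted p under 0.05 and diamonds an 8mer. MPV17L2 at -1.80 and -1.53 lies apart from the other members, which range from -0.57 to 0.64 with miR-34a-WT and from -0.59 to 0.57 with miR-34a-RS.

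The largest rises were in the large subunit. MRPL18 (ENSG00000112110, chr6:159789812-159798436, + strand), known also for a part in 5S rRNA import, was at 77.9, 73.9, 74.3, 74.0 and 66.8 CPM in control, at 111.4, 117.5, 114.1, 107.0 and 120.8 in miR-34a-WT, and at 109.2, 111.2, 106.1 and 109.1 in miR-34a-RS. Every miRNA library exceeded every control library. The log2 fold change was 0.64 (SE 0.05, edgeR adjusted p = 2.39e-11) and 0.57 (SE 0.05, adjusted p = 7.09e-10).

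MRPL50 (ENSG00000136897, chr9:101387633-101398614, − strand), a large subunit protein with no bacterial counterpart, was at 37.4, 33.5, 34.4, 34.9 and 31.2 CPM in control, at 51.6, 53.5, 49.6, 48.1 and 46.3 in miR-34a-WT and at 49.4, 47.5, 48.4 and 43.6 in miR-34a-RS. The groups did not overlap with control, and its UTR holds a 7mer-A1. The log2 fold change was 0.54 (SE 0.05, edgeR adjusted p = 1.01e-08) and 0.46 (SE 0.06, adjusted p = 3.94e-07).

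MRPL58 (ENSG00000167862, chr17:75012670-75021261, + strand), a peptidyl-tRNA hydrolase built into the large subunit that frees stalled ribosomes, was at 39.4, 36.7, 36.5, 35.3 and 34.2 CPM in control, at 48.9, 55.1, 52.0, 48.0 and 51.5 in miR-34a-WT and at 45.5, 48.5, 50.8 and 50.4 in miR-34a-RS. Its lowest miRNA library was again above its highest control library. The log2 fold change was 0.49 (SE 0.05, edgeR adjusted p = 2.16e-08) and 0.42 (SE 0.05, adjusted p = 7.13e-07). MRPL45, known for anchoring the ribosome to the inner membrane at the exit of the peptide tunnel, rose from 59.4 ± 1.2 CPM to 69.5 ± 3.7 (n = 5) and 69.0 ± 1.6 (n = 4), a log2 fold change of 0.23 and 0.22.

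In the small subunit the rises were smaller. MRPS18B, 1 of 3 related MRPS18 proteins, rose from 84.4 ± 2.0 CPM in control to 104.4 ± 4.7 in miR-34a-WT (log2 fold change 0.31, SE 0.04, edgeR adjusted p = 2.71e-06) and 101.3 ± 4.5 in miR-34a-RS (0.26, SE 0.05). The related genes MRPS18A and MRPS18C did not pass in either comparison. MRPS10 rose from 61.9 ± 2.7 CPM to 75.6 ± 3.2 and 74.4 ± 4.9 (log2 fold change 0.29 and 0.26). MRPS27, an RNA-binding protein of the pentatricopeptide repeat family, rose from 196.3 ± 9.1 CPM to 234.6 ± 5.4 and 224.0 ± 4.0 (0.26 and 0.19), and its UTR holds a 6mer. For each of these 3 genes all miRNA libraries lay above all control libraries.

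The remaining rises were between 0.12 and 0.32 on the log2 scale with miR-34a-WT and between 0.12 and 0.27 with miR-34a-RS. By name, those called with both were MRPL9, MRPL19, MRPL21, MRPL34, MRPL36, MRPL37, MRPL39, MRPL40, MRPS31 and MRPS33. With miR-34a-RS the calls of MRPL9, MRPL37, MRPL21, MRPL40, MRPL19 and MRPL39 were lost in 6, 5, 5, 4, 2 and 2 of 23 alternative settings, and with miR-34a-WT that of MRPL34 in 2. MRPL17, MRPL48, MRPS7, MRPS23, MRPS30 and MRPS36 passed the threshold with miR-34a-WT and not with miR-34a-RS, and MRPL23, MRPL28 and MRPL38 with miR-34a-RS and not with miR-34a-WT. The miR-34a-WT calls of MRPL48, MRPS30 and MRPS23 were lost in 7, 2 and 1 of 23 alternative settings, and those of MRPL17, MRPS7 and MRPS36 in none. The miR-34a-RS calls of MRPL38, MRPL23 and MRPL28 were lost in 9, 6 and 2 of 23. None of these 9 was called between the miRNAs in the unblocked fit of all 14 libraries. In that comparison MRPL28 was called with the replicate block and also without miR-34a-RS replicate 1, and MRPL17 and MRPS7 with block and trend removal together. MRPS36 is now known mainly as a component of the 2-oxoglutarate dehydrogenase complex.

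Falls without an 8mer in the 3′ UTR ran from -0.17 to -0.30 on the log2 scale with miR-34a-WT. They were smaller than those of MPV17L2 and MRPL10, while MRPS25, with an 8mer, had a value of similar size (-0.17). MRPS12, a protein of the decoding centre, was at 53.1 ± 5.0 CPM in control, 43.1 ± 3.3 in miR-34a-WT and 44.9 ± 3.5 in miR-34a-RS, a log2 fold change of -0.30 (SE 0.07, edgeR adjusted p = 6.43e-04) and -0.24 (SE 0.07, adjusted p = 0.00816). Its miR-34a-WT libraries, at 37.6 to 45.6 CPM, lay just under the lowest control library, and its miR-34a-RS libraries overlapped control. The miR-34a-RS call was lost without miR-34a-RS replicate 1 (adjusted p = 0.0515). MRPL16 (-0.18 and -0.13) and MRPL3 (-0.17 and -0.20), core large subunit proteins with bacterial counterparts, were lower in both comparisons. The miR-34a-RS call of MRPL16 was lost in 4 of 23 alternative settings (highest adjusted p 0.212), 3 of them without 1 library (control replicate 1, miR-34a-RS replicate 1 or 3). MRPS2 (-0.20) and MRPS17 (-0.28) were lower with miR-34a-WT, the MRPS2 call being lost in 2 settings, 1 of them without control replicate 3. With miR-34a-RS their values were -0.07 and -0.20 (edgeR adjusted p = 0.472 and 0.0674), and between the miRNAs without the block they differed by 0.13 (95% interval -0.01 to 0.27) and 0.08 (-0.09 to 0.25), neither past the threshold. MRPS12, MRPL16, MRPL3, MRPS2 and MRPS17 fall outside the naming rule and were named after their values were seen. Of the 8 lower members, MRPS12, MRPS17, MRPS2 and MRPS25 share at least 10% of their exon bases with another gene, as do 25 of the 78 tested members. With miR-34a-WT, 3 of these 25 were higher and 4 lower, and of the 37 members sharing none 17 were higher and 3 lower. Over all tested genes 18.9% were higher and 21.3% lower. The part of the shared exons in these values was not tested.

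Between the miRNAs, no member was called by edgeR at an adjusted p under 0.05, beside 1.56% of all tested genes (1.03% higher, 0.535% lower), and DESeq2 called none either. In no member did the 2 groups fail to overlap, beside 4.81% of all tested genes (2.66% higher, 2.16% lower). At an unadjusted edgeR p under 0.05 there were 4 of 78 tested members, beside 2227 of all 18321 tested genes. The 4 were MPV17L2, MRPL28, MRPL17 and MRPL32. For MPV17L2, miR-34a-RS minus miR-34a-WT was 0.27 on the log2 scale (95% interval 0.10 to 0.44, edgeR adjusted p = 0.109), with 11.2 CPM as the lowest miR-34a-RS library and 11.3 as the highest miR-34a-WT library. Same-numbered libraries of the 2 miRNA groups deviated together, so a fit blocked on replicate number is given as well. In that fit 3 of 78 tested members were higher with miR-34a-RS, MPV17L2, MRPL28 and MRPS2, beside 625 higher and 629 lower of all 18321 tested genes. The blocked difference of MPV17L2 was 0.30 (edgeR adjusted p = 0.00241). Without miR-34a-RS replicate 1 the unblocked difference was 0.33 (adjusted p = 0.0265). MRPL10 differed by -0.02 (95% interval -0.11 to 0.08) and MRPS25 by 0.03 (-0.07 to 0.12) between the miRNAs, neither past the threshold. MRPL18, the largest rise, differed by -0.07 (-0.17 to 0.03).

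Levels between genes were compared per kilobase of merged exon. Merged exons pool all annotated transcripts of a gene, so these levels depend on that length as well as on counts. In control, tested MRPL genes ranged from 1.29 to 113 CPM per kb with a median of 28.6. MRPS genes ranged from 0.629 to 94.0 with a median of 18.7. Without division by length the medians were alike, at 61.5 CPM for MRPL and 61.9 CPM for MRPS genes. The highest were MRPL37, MRPL15 and MRPL51 in the large subunit (113, 77.0 and 74.1 CPM per kb) and MRPS34, MRPS26 and MRPS21 in the small (94.0, 82.4 and 62.1). The lowest were MRPL46, MRPL38 and MRPL2 (1.29, 2.21 and 2.85) and MRPS24, MRPS5 and MRPS18C (0.629, 2.72 and 2.83). MPV17L2 stood at 16.8 CPM per kb. MRPS24 shares 23.2% of its exon bases with the readthrough gene URGCP-MRPS24 and MRPL38 41.1% with 2 other annotated genes. Reads of shared bases may have been counted for another gene or for none, so levels of such members are uncertain.

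**Figure D3:**
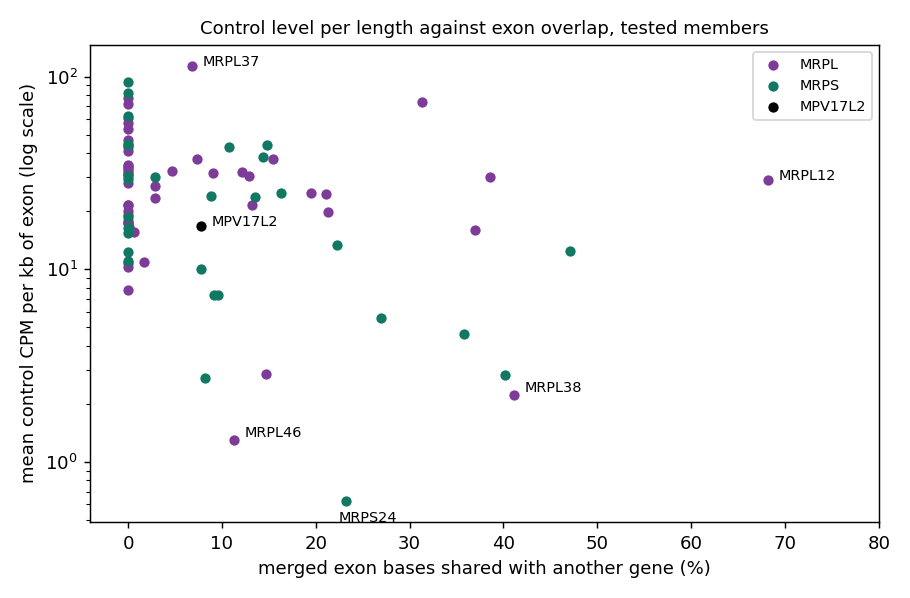
Mean control level in CPM per kb of merged exon (y axis, log scale) against the share of exon bases that another annotated gene shares (x axis, percent) for the 78 tested members. MRPS24 (0.629), MRPL46 (1.29) and MRPL38 (2.21) lie lowest, all with over 10% of exon bases shared, while MRPL12 shares 68.2% and lies at the level of many members that share none.

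Summed over genes, MRPL levels were 3398 ± 70 CPM in control, 3585 ± 84 in miR-34a-WT and 3548 ± 61 in miR-34a-RS, and MRPS levels 1903 ± 34, 2032 ± 53 and 1998 ± 35 CPM (SD). The MRPL to MRPS ratio of these sums was 1.79, 1.76 and 1.78. The MRPS sum was 1862 to 1942 CPM in control libraries and at least 1948 in every miRNA library, while the MRPL sum of the lowest miR-34a-RS library (3469) lay within the control range of 3321 to 3472. No test was made on the sums.

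The other genes of mitochondrial gene expression moved in both directions. Of 5 mitoribosomal proteins without an MRP symbol, GADD45GIP1 was higher (log2 fold change 0.17 and 0.22) and DAP3, PTCD3, CHCHD1 and AURKAIP1 did not pass in either comparison. Of 30 tested assembly and rRNA modification genes, 6 were higher and 5 lower with miR-34a-WT, and 3 and 4 with miR-34a-RS. Among them MRM1, a methyltransferase of the large rRNA, was lower (-0.44 and -0.40), NOA1, an assembly GTPase, was lower (-0.20 and -0.14), and the methyltransferases of the small subunit rRNA METTL15 (0.30 and 0.19) and TFB1M (0.25 and 0.20) were higher. The median of this list was 0.03 and 0.01.

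Translation factors were called higher in 7 of 16 and lower in 1 of 16 with each miRNA, with a median log2 fold change of 0.13 in both. MTFMT, which formylates the initiator tRNA, rose from 15.6 CPM to 24.0 and 24.2 (0.62 and 0.63). MTRFR, a rescue factor of stalled ribosomes, rose by 0.45 and 0.46, GUF1, a GTPase of elongation, by 0.33 and 0.30, and MTIF2, the initiation factor, by 0.21 and 0.18. Of 22 aminoacyl-tRNA synthetases and amidotransferase subunits, 5 were higher and 5 lower with miR-34a-WT and 4 and 2 with miR-34a-RS. QRSL1 (0.37 and 0.35) and GATC (-0.14 and -0.21), 2 subunits of the amidotransferase that makes glutaminyl-tRNA, moved in opposite directions. WARS2, the tryptophan enzyme, was higher (0.33 and 0.20) and EARS2, the glutamate enzyme, lower (-0.19 and -0.21).

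Of 10 transcription and replication genes, 1 was higher and 1 lower with miR-34a-WT, and 1 and 2 with miR-34a-RS. TWNK, the mitochondrial DNA helicase, fell from 79.1 CPM to 60.8 and 61.3 (-0.38 and -0.37), TFAM, which packages mitochondrial DNA, rose by 0.19 and 0.16, and POLG2, a polymerase subunit, was called lower with miR-34a-RS (-0.13) and not with miR-34a-WT. The 13 mitochondrially encoded protein genes had no call with miR-34a-WT and 2 lower with miR-34a-RS, MT-ND3 (-0.19) and MT-ND6 (-0.17). Without miR-34a-RS replicate 2 neither passed (edgeR adjusted p = 0.062 and 0.189). MT-ND3 was also lost without control replicate 3 (adjusted p = 0.0547), and MT-ND6 in DESeq2 (adjusted p = 0.0729), both other scalings, both other filters and 6 further omissions of 1 library. All 13 had values below 0 with miR-34a-RS against control (median -0.17) and against miR-34a-WT (median -0.19). Against miR-34a-WT, 6 were at an unadjusted edgeR p under 0.05, beside 2227 of all 18321 tested genes, and none was called. All genes with a symbol starting in MT-, of which these 13 are only a part, were also summed. This sum took 3.003% ± 0.15 of counts in control, 3.05% ± 0.29 in miR-34a-WT and 2.71% ± 0.37 in miR-34a-RS. In miR-34a-RS, replicate 2 stood lowest at 2.19% and the others at 2.75% to 3.08%. MPV17 and PXMP2, relatives of MPV17L2, did not pass in either comparison (0.04 and 0.06, and 0.03 and -0.03), and MPV17L did not pass the filter on low counts.

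Cytosolic ribosomal protein genes, the counterpart in the cytosol, had a median log2 fold change of -0.08 in both comparisons. With miR-34a-WT 3 of 86 were higher and 20 lower, and with miR-34a-RS 3 and 16. RPS12 (-0.42 and -0.45) and RPL13A (-0.24 and -0.21) were lower, and the paralogues RPL7L1 (0.65 and 0.61) and RPL39L (0.37 and 0.47) higher. Reads of this family can be shared with many near-identical pseudogenes, so its values are uncertain. No test was made of the difference between the 2 ribosomes.

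**Figure D4:**
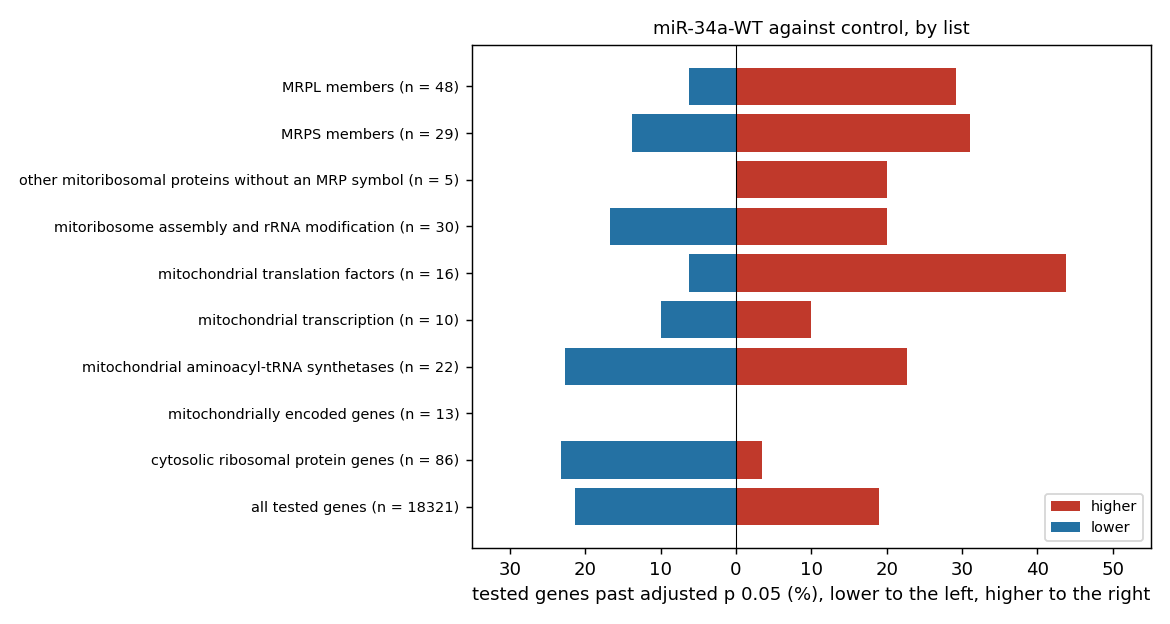
Share of tested genes in each list (bars, percent of the number tested given in each label) past an edgeR adjusted p of 0.05 for miR-34a-WT against control, higher to the right and lower to the left. MRPL and MRPS genes were higher in 29.2% and 31.0% and lower in 6.25% and 13.8%, cytosolic ribosomal protein genes higher in 3.49% and lower in 23.3%, beside 18.9% and 21.3% of all tested genes.

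Promoters were available from RefSeq (GRCh38.p14) for 70 of the 79 members, as 300 bases around the start. The words of 3 factors known at such promoters were searched on both strands, chosen after the fold changes had been seen. The ETS word of GABP (CCGGAAG) occurred in 29 (41.4%), against 18.0% of 12145 promoters of tested genes. The YY1 word (AAGATGGC) occurred in 20 (28.6%), against 4.96%, and the NRF1 word in 8 (11.4%), against 11.2%. The YY1 word occurred in 8 of 21 members higher with miR-34a-WT, 1 of 7 lower and 11 of 41 not called, and the ETS word in 7, 3 and 18 of the same members. The windows shown, with the word in capitals, were chosen after the values were seen and are examples only. For YY1 these are MRPL50 and MRPS18B (higher with miR-34a-WT) and MRPL52 (not called).
MRPL50, chr9:101398577-101398606, − strand: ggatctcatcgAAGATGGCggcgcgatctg
MRPS18B, chr6:30617852-30617881, + strand: gggcgtacgtcAAGATGGCggcgtctgtat
MRPL52, chr14:22829778-22829807, + strand: tacgatgacccAAGATGGCggagccgtgat
For ETS these are MRPL58 (higher), MRPL16 and MRPL3 (lower).
MRPL58, chr17:75012466-75012495, + strand: atcggggcactCTTCCGGtagcagctcgct
MRPL16, chr11:59810766-59810795, − strand: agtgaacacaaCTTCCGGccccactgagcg
MRPL3, chr3:131502985-131503014, − strand: tgtaaaacgcaCCGGAAGtgggtccggcgg
CTTCCGG is the reverse complement of the ETS word. A match describes these letters and is not evidence of binding.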

How the data were processed

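The 14 HEK293T libraries were made from total RNA with TruSeq RNA v2 chemistry, per the labels' protocols, which keeps no strand information. The authors deposited 1 table of whole-number read counts for 63140 genes in 14 columns, each matched to its label. Named in the submitters' processing notes are GRCh38, featureCounts, STAR 2.7.11a, edgeR 3.42.4 and Subread 2.0.3. The annotation release and strand setting are not given in the sources used here. Groups follow the treatment label. No replicate pair agreed within sampling noise (chi-square per degree of freedom 2.72 to 14.28 over 26 pairs).

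The test on counts used edgeR 4.0.16 (R 4.3.3, limma 3.58.1) by TMM factors, filterByExpr by group, and the robust glmQLFit and two-sided glmQLFTest, in 1 fit of 3 group means to all 14 libraries. Benjamini-Hochberg adjustment ran over 18321 tested genes, threshold 0.05, intervals 95%, and the common biological coefficient of variation was 0.062. Other settings were DESeq2 1.42.0, 2 other scalings, no filter or at least 1 CPM in at least 4 libraries, the replicate number as a block, only the 2 groups compared, removal of 3′ UTR GC and length trends, and each library left out. Same-numbered libraries of the 2 miRNA groups correlated in their deviations from group means at 0.396 to 0.779 over 9901 genes (other pairs, mean -0.144), so numbers were taken as pairs there. The pairing comes from this check, not from the labels.

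Symbols, exons and 3′ UTRs came from GENCODE 29, which holds 99.7% of counts by gene identifier, with current symbols. The 3′ UTR was the longest of at least 20 bases among complete protein-coding transcripts. A first search that included decay-target transcripts was replaced after its counts and fold changes had been seen. The search of whole transcripts, the split at 10% shared exon and RAB3A were also added after values were seen. Python 3.11.15, numpy 2.4.6, pandas 2.3.3, scipy 1.17.1 and matplotlib 3.10.9 were used.

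Members, lists and markers were chosen with earlier results of these data known. The rule for names took MPV17L2, members with an 8mer or 7mer-m8, the 8 members with the smallest adjusted p in each comparison, the 3 highest and lowest per length in each subunit, members failing the filter, up to 4 genes of each other list and the MPV17 relatives, 56 genes of which 26 are members. On simulated counts of 18321 genes, 1.25-fold changes were recovered in 80% of genes for miR-34a-WT against control, 70% for miR-34a-RS against control and 54% between the miRNAs. Only 50 genes above a minimum mean level were changed at each fold, while 40.2% of genes were called with miR-34a-WT in the data. Simulated libraries were also drawn independently, unlike same-numbered miRNA libraries, so recovery in the data may differ.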

Additional observations from a re-analysis of the deposited data

Results flagged for a closer look

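Of 75 gene and group combinations examined, 4 had 1 library far from the others of its group, and chance alone gives about 1 in 20. MRPL38 was at 9.12 CPM in control replicate 5 and at 7.73 to 7.98 in the other 4 control libraries. MRPS34 was at 86.7 CPM in miR-34a-RS replicate 1 and at 99.5 to 102.0 in the other 3. MRPS26 was at 87.6 CPM in miR-34a-WT replicate 1 and at 101.5 to 104.6 in the other 4. MRPS21 was at 123.6 CPM in miR-34a-WT replicate 2 and at 101.5 to 107.7 in the other 4. MRPS34, MRPS26 and MRPS21 were not called in any comparison in the fit reported. MRPS26 was called higher with each miRNA without replicate 1 of that miRNA, with the replicate block, and with the 3′ UTR GC and length trend removed. MRPS21 was called higher with both miRNAs with the trend removed, and MRPS34 between the miRNAs with trend removal and block together. MRPL38 was called higher with miR-34a-RS in edgeR but lost that call in 9 of 23 other settings.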

How the results depend on the processing

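Of the 31 members called by edgeR for miR-34a-WT against control, 26 stayed past the threshold in all 23 other settings, as did 14 of 26 for miR-34a-RS, MPV17L2, MRPL10, MRPL18, MRPL50 and MRPL58 among both. MRPL48 with miR-34a-WT was lost in 7 settings. With the 3′ UTR GC and length trend removed, the members higher with miR-34a-WT numbered 40, and 42 with the replicate block added. Of the 13608 genes tested in those fits, 4415 and 4758 were higher. With trend removal and block together, miR-34a-RS had 34 members higher and 11 lower, beside 4298 and 3377 of all 13608. Between the miRNAs 9 members were lower in that fit, beside 895 of all. The replicate block alone gave 34 higher with miR-34a-WT and 10 lower with miR-34a-RS, beside 4169 and 4037 of 18321 genes. Between a miRNA and control the numbers were not taken as pairs, since same-numbered libraries correlated at -0.203 to 0.599 and -0.057 to 0.521, and 3 of 5 and 2 of 4 numbers correlated best with their own. The same-numbered means were still 0.324 and 0.273, above those of other pairs (-0.077 and -0.069). Leaving out 1 library gave 21 to 31 higher and 7 to 9 lower members with miR-34a-WT. With miR-34a-RS it gave 13 (without miR-34a-RS replicate 2) to 25 higher and 4 to 7 lower. Between the miRNAs 0 to 2 were higher. The 2 were MPV17L2 and MRPL28, without miR-34a-RS replicate 1, where 391 of all 18502 tested genes were higher.

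Between the miRNAs 1 member, MPV17L2, was higher with no filter (0.28, edgeR adjusted p = 0.0248), with the trend removed (0.21, adjusted p = 0.0471) and with trend and block (0.22, adjusted p = 0.0101), and 3 members with the replicate block alone (MPV17L2 0.30). Of all genes, 259 of 41463 were higher with no filter, 356 of 13608 with the trend removed and 539 of 13608 with trend and block. Leaving out 1 library gave MPV17L2 0.21 to 0.33. The cause of these changes was not tested. With transcripts that are decay targets in the UTR search, 1 member with a 7mer-m8 was higher with each miRNA, since MRPL21 took the place of MRPL33, and the members with an 8mer were the same 3. Any protein-coding UTR added MRPL42 as an 8mer, which was not called.

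Named genes that passed in neither fit turned direction by more than 1 SE in 14 cases. With the trend removed, and with the block added, MRPL33 with miR-34a-WT became -0.080 and -0.078, MRPL52 0.030 and 0.033, MRPS34 0.068 and 0.069, and between the miRNAs GADD45GIP1 became -0.017 and -0.041 and MRM1 -0.023 and -0.031. With both, MRPL15 with miR-34a-WT became -0.000168, MRPL33 with miR-34a-RS -0.091 and TWNK between the miRNAs -0.049. MRPS34 between the miRNAs ranged from -0.077 to 0.019 with 1 library left out, the latter without miR-34a-RS replicate 1. Another 111 changes of sign were under 1 SE. Over all tested genes, DESeq2 scaling in edgeR gave 3750 higher and 3685 lower with miR-34a-WT, against 3469 and 3904 in the fit reported, each of 18321. Trend removal gave 4415 and 3311 of 13608.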
